A study of Mus musculus with 17 samples.

Results

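Axonal transport in FOXO-deficient dentate gyrus was examined through the genes of its motors. These are the kinesin heavy chains (every mouse gene named Kif with a number), the kinesin light chains Klc1 to Klc4, the cytoplasmic dynein subunits (Dync1, Dync2 and Dynl genes), the dynactin subunits Dctn1 to Dctn6, and the JIP scaffolds Mapk8ip1 and Mapk8ip3. They were chosen by symbol alone, from probe sets annotated to a single gene, and each gene was read by its brightest probe set over the 15 unmarked arrays. This gave 61 genes of the 18193 on the array, with 146 of its 45037 mouse probe sets. Klc2 was not among them. The 11 kinesins known mainly for mitosis are described apart from the other 50.

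Kinesins and cytoplasmic dynein are ATP-driven motors that walk along microtubules. In axons, where microtubule plus ends point away from the cell body, most kinesins carry vesicles, mitochondria and cytoskeletal proteins outward. Cytoplasmic dynein, with its activator dynactin, carries endosomes, autophagosomes and trophic signals back. JIP proteins are scaffolds that join cargo and stress kinase signalling to these motors, and a separate dynein works inside cilia. Mutations in several motor genes cause axonal disease in people.

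The WT and KO mice belonged to a study of FOXO, a family of transcription factors, in brain ageing. KO animals carried floxed Foxo1, Foxo3 and Foxo4 with hGFAP-cre, which acts in progenitors of both neurons and glia and so deletes the genes in both, on a mixed FVB and B6 background. WT is the labels' name for the controls, and the sources used here do not say which alleles or cre they carried. RNA came from laser-captured dentate gyrus by the study's methods, while the labels name only brain, and no age or sex is given for these samples. There were 8 KO and 7 WT arrays, plus 1 KO array (mark 433) and 1 WT array (mark 437) that also bear the mark CA13, whose meaning is not explained in the labels or methods. Each mark is read here as an animal, which is not stated outright, so that p-values measure only the spread between these samples, part of which may be technical.

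The deposited signals were compared as log2(signal + 32), so that a step of 1 is a doubling for bright probe sets and differences of dim ones are understated. Foxo1, the check of the deletion, lay between 12.33 and 13.94 in WT (median 13.26) and between 7.33 and 9.44 in KO (median 7.94). Every KO array was below every WT array, with a log2 fold change of -5.08 (SE 0.30, limma adjusted p = 1.16e-07). The other Foxo1 probe sets, dimmer than this one, gave -3.0 to -0.06. Foxo3 and Foxo4 were not part of this check. A list of 13 dentate granule neuron markers had a mean of 10.78 to 11.06 on 15 of the 17 arrays, and 12 CA pyramidal neuron markers had a mean of 8.09 to 8.77 on the same arrays. The exceptions were the CA13-marked array of 437 (granule 7.90, CA 10.80) and the unmarked KO array of 433 (granule 7.95, CA 10.83). The library labelled 433 therefore had CA-like markers without bearing the mark CA13, although the study's methods name dentate gyrus. The CA13-marked array of 433 had granule markers at 10.81 and CA markers at 8.30. For several members, but not for all, the difference is given with and without the library labelled 433. Mean oligodendrocyte markers were higher in KO by 0.54 on the log2 scale without 433 (0.49 with it), with WT arrays at 8.96 to 10.14 and KO arrays at 9.65 to 10.71. The newborn neuron list differed by -0.32 with 433 and -0.24 without it, and 2 of its 5 genes had a mean signal under 100. The mean of the dividing cell list lay between 6.16 and 6.84 on the 15 arrays outside the low granule pair, and 4 of its 6 measured genes had a mean signal under 100.

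The promoters of 3 members are shown for the results they bear on. Dctn2, which encodes dynamitin of dynactin, was the single member whose promoter held the FOXO core motif GTAAACA on either strand. Kif26b and Dync1i1 lay outside the other arrays, in opposite directions, on both arrays with CA-like markers. Each sequence runs 5′ to 3′ from 250 bases before to 50 bases after a start that the RefSeq promoter table sets (build GRCm38.p6), which for Dync1i1 lies downstream of the first annotated base of the gene (5725600), and capitals mark the motif, which reads TGTTTAC on the printed strand.
Dctn2 (chr10:127266012-127266311, plus strand): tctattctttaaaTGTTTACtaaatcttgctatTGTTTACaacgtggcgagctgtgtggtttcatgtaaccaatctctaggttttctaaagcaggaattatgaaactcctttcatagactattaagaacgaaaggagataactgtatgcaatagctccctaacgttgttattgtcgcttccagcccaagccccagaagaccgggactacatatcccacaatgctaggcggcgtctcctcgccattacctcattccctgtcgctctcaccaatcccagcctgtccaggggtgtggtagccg
Kif26b (chr1:178528875-178529174, plus strand): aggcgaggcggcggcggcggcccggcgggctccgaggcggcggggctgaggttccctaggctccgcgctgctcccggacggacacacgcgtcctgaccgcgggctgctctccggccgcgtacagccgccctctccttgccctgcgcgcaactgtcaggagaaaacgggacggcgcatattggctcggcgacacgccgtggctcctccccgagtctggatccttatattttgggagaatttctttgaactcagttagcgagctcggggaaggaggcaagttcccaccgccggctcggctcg
Dync1i1 (chr6:5725389-5725688, plus strand): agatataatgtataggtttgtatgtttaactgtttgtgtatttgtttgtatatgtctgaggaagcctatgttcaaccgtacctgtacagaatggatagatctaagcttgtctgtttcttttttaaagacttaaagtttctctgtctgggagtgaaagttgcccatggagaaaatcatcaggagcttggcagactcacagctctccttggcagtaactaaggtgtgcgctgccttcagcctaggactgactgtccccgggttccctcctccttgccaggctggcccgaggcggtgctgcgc
The motif occurred 2 times before Dctn2, beginning 237 and 217 bases before the start. It was absent from the windows of Kif26b and Dync1i1, and in all 1 of 56 promoters of the 49 members found in the table held it, beside 1199 of 32851 mouse promoters (3.65%). The Dctn2 window also lies within the annotated bounds of Kif5a (chr10:127225695-127266348), a kinesin heavy chain gene. Dctn2 mRNA lay between 10.28 and 11.61 in WT (median 10.50) and between 9.94 and 11.12 in KO (median 10.56). The groups overlapped, and the log2 fold change was -0.15 (SE 0.22, 95% confidence interval -0.61 to 0.30, limma adjusted p = 1.00).

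No motor gene passed the test between KO and WT. Of the 61 members, 0 were called by limma at an adjusted p under 0.05, and 2 of the 18193 genes were (0.011%). At an unadjusted limma p under 0.05, 1 member was higher in KO (Dync1i1) and 0 were lower, beside 1.53% and 1.52% of all genes. Over all probe sets, 4 of the members' 146 reached this level (2.74%, 3 higher and 1 lower), beside 3.22% of all 45037. The groups overlapped for all 61 members, while 0.022% of all genes had groups that did not. The sign of the difference was opposite in the 2 array series that the labels name for 29 of the 61 members (47.5%), beside 52.0% of all genes. The larger series holds 11 of the 15 arrays and the smaller one 4, with 2 of each genotype. The members' log2 fold changes ran from -0.36 (Kif7) to 0.36 (Kif15) with a median of 0.03 (all genes 0.01), 35 of them above 0 and 26 below. The 95% confidence interval lay within 1 log2 unit of 0 for all 61 members and for 94.8% of all genes, and within 0.5 for 28 members. The standard errors were 0.07 to 0.31 (median 0.19), and a 2-fold change on this scale, in either direction, lay outside every member's interval. For the 16 members with a mean signal under 100, the scale understates the change in signal.

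**Figure D1:**
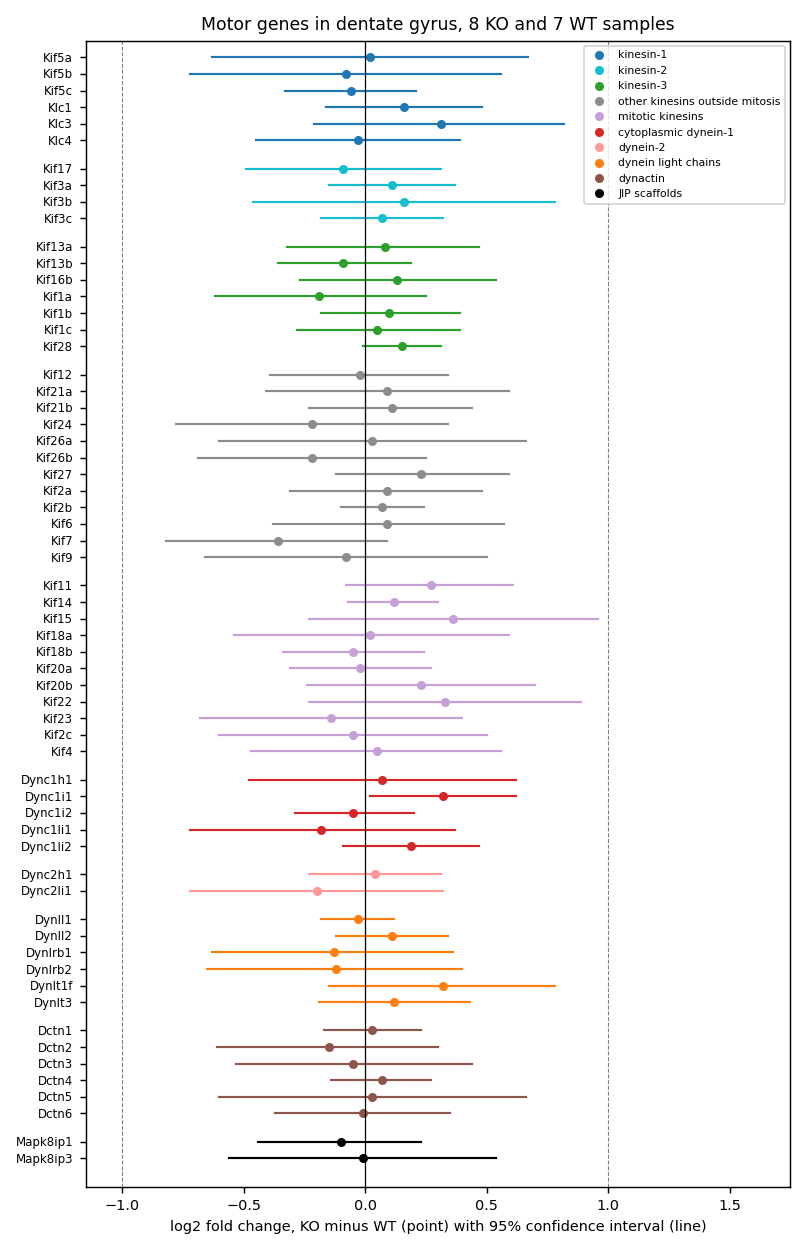
Log2 fold change, KO minus WT, of the 61 motor genes (points, limma on 8 KO and 7 WT arrays) with 95% confidence intervals (lines), coloured by role, with dashed lines at a 2-fold change. All intervals lie between the dashed lines and that of Dync1i1 alone excludes 0, before adjustment.

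Kinesin-1 is the main carrier of anterograde axonal transport, built of KIF5 heavy chains and light chains that hold cargo. None of its 6 measured genes passed the test, and their log2 fold changes had a median of -0.01. Kif5a, a neuronal heavy chain, lay between 10.34 and 12.25 in WT (median 11.38) and between 10.45 and 12.23 in KO (median 11.46). The 2 ranges were nearly the same, and the difference was 0.02 (SE 0.31, 95% confidence interval -0.63 to 0.67). Without the library labelled 433 it was -0.10. Kif5c, the other neuronal heavy chain, lay between 13.84 and 14.54 in WT (median 14.45) and between 13.82 and 14.60 in KO (median 14.42). Its difference of -0.06 was among the more precise ones (SE 0.13, interval -0.33 to 0.21). Kif5b, the heavy chain found in most cells, spread from 7.58 to 10.12 over the WT arrays (median 9.43) and from 8.41 to 9.58 over the KO arrays (median 9.14). The WT arrays enclosed the KO arrays, with a difference of -0.08 (SE 0.31). For Kif5b it was -0.35 without the WT array 392, and -0.37 in the larger array series against 0.61 in the smaller.
Klc1, the main light chain of neurons, lay between 12.20 and 13.06 in WT (median 12.43) and between 12.30 and 13.13 in KO (median 12.74), a difference of 0.16 (SE 0.15). Klc4, another light chain, differed by -0.03 (SE 0.20). The dim Klc3, a light chain with a mean signal of 59.3, differed by 0.31 (SE 0.25). These overlaps left no kinesin-1 gene outside the spread between samples. Secondary probe sets of Kif5a gave -0.12 and 0.19, and those of Kif5c gave -0.02 to 0.28, all of them dimmer than the ones used.

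Kinesin-2 motors move vesicles in axons and dendrites and carry material into cilia. None of the 4 genes passed the test, and the log2 fold changes ran from -0.09 to 0.16. Kif3a, which pairs with Kif3b or Kif3c, lay between 10.58 and 11.17 in WT (median 10.89) and between 10.71 and 11.39 in KO (median 10.98). The shift of 0.11 was smaller than the spread within either group (SE 0.12). The other Kif3a probe sets went the opposite way, at -0.21 to -0.04. The brightest of them gave -0.21 (SE 0.17) at a mean signal of 1490.1, beside 1982.0 for the one used. Kif3c, the neuron-enriched partner, lay between 11.13 and 11.67 in WT (median 11.30) and between 11.23 and 11.85 in KO (median 11.34), a difference of 0.07 (SE 0.12). Kif3b lay between 7.27 and 9.40 in WT (median 7.71) and between 7.49 and 9.02 in KO (median 8.21). Its difference of 0.16 (SE 0.29) was not alike across array series, being 0.48 in the larger series and -0.67 in the smaller. Without the library labelled 433 it was 0.04. Kif17, a dendritic motor known for carrying NMDA receptor vesicles, lay between 9.66 and 10.76 in WT and between 9.16 and 10.34 in KO, with median signals before log2 of 914.3 in WT and 1010.9 in KO. The lowest KO value was that of the library labelled 433, and the difference was -0.09 with it and 0.02 without it.

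Kinesin-3 motors move synaptic vesicle precursors, dense-core vesicles and endosomes. None of the 7 genes passed the test, and 5 had a confidence interval within 0.5 of 0, with log2 fold changes from -0.19 to 0.15. Kif1b, which carries mitochondria and synaptic vesicle precursors, lay between 13.25 and 13.76 in WT (median 13.54) and between 12.93 and 13.85 in KO (median 13.63). The KO array MS15 was the low one, and the difference was 0.10 (SE 0.13), with the other 6 probe sets of the gene at -0.13 to 0.26. Kif1c, a vesicle motor found in many cells, lay between 10.39 and 11.16 in WT (median 10.69) and between 10.35 and 11.20 in KO (median 10.64), a difference of 0.05 (SE 0.16). Kif1a, the main carrier of synaptic vesicle precursors, was read only dimly here, with a mean signal of 71.0. It lay between 6.34 and 7.26 in WT (median 6.77) and between 5.78 and 7.04 in KO (median 6.59), a difference of -0.19 (SE 0.21) whose interval ran from -0.62 to 0.25. Kif16b, an early endosome motor, differed by 0.13 on the probe set used and by 0.53 (SE 0.20) on a dimmer one, which was 1 of the 4 probe sets under an unadjusted p of 0.05. Kif28 lay between 5.06 and 5.32 in WT (median 5.11) and between 5.14 and 5.46 in KO (median 5.31). Its mean signal of 6.0 is well under the 32 added before log2, so that the difference of 0.15 (SE 0.08, exact permutation p = 0.027, two-sided, over 6435 splits) concerns a probe set with next to no signal.

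**Figure D2:**
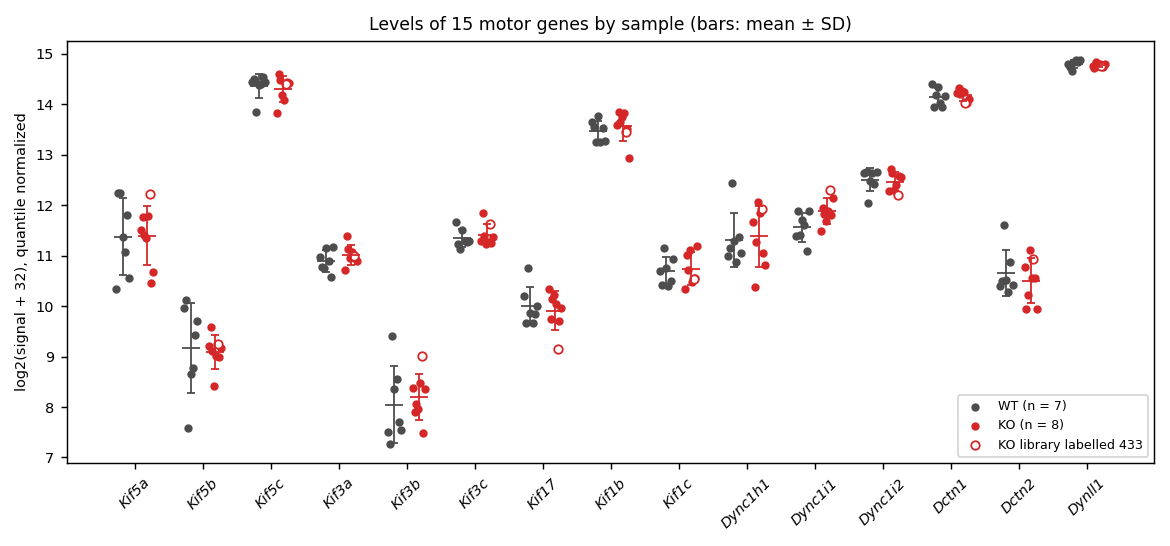
Log2(signal + 32) of 15 motor genes in every WT array (grey) and KO array (red, the library labelled 433 as an open circle), with mean and SD. Each gene is read by its own probe set, so only WT and KO of the same gene can be compared, and the groups overlap for each gene.

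The other 12 kinesins that were not placed in the mitotic group include microtubule-regulating and ciliary motors, and none passed the test. Kif7, which acts in Hedgehog signalling at the tip of the primary cilium, had the lowest log2 fold change of all members, -0.36 (SE 0.22, 95% confidence interval -0.82 to 0.09). It lay between 6.43 and 8.14 in WT (median 7.24) and between 6.30 and 7.20 in KO (median 6.89), at a mean signal of 102. No KO array was above the WT median. The Kif7 difference was -0.21 without WT 392, its highest WT array, and -0.17 and -0.82 in the larger and smaller array series. Kif2a, a microtubule depolymerase that limits axon branching, lay between 10.69 and 12.14 in WT (median 11.59) and between 11.26 and 12.30 in KO (median 11.62), a difference of 0.09 (SE 0.19). A dim secondary probe set of Kif2a gave 0.45 (SE 0.20) at an unadjusted p under 0.05, while the second brightest gave 0.00. Kif26b, an atypical kinesin, differed by -0.22 (SE 0.22), and by -0.01 without the library labelled 433.

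The 11 mitotic kinesins were mostly dim. The mean signal was under 100 for 6 of them, none passed the test, and their log2 fold changes ran from -0.14 to 0.36 with a median of 0.05. Kif22, a chromosome-arm motor, was the brightest of them by its probe set and lay between 10.32 and 12.47 in WT (median 11.31) and between 11.07 and 12.17 in KO (median 11.90). The difference was 0.33 (SE 0.27), and the other probe sets of the gene, with next to no signal, gave 0.03 and 0.12. The Kif22 difference was 0.57 in the larger array series and -0.23 in the smaller, and it was 0.15 without WT 206 and 0.50 without WT 392. This probe set is of a type whose probes can also match other transcripts. Kif18b, a regulator of spindle microtubules, lay between 7.32 and 7.80 in WT (median 7.62) and between 7.38 and 8.0 in KO (median 7.52), a difference of -0.05 (SE 0.14). Kif11, which pushes spindle poles apart, lay between 6.60 and 7.31 in WT (median 7.17) and between 6.84 and 7.68 in KO (median 7.41). Its difference was 0.27 (SE 0.16), and its other probe sets gave 0.02 to 0.05. Kif15, which works with Kif11 on the spindle, differed by 0.36 (SE 0.28) at a mean signal of 40.4.

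Cytoplasmic dynein-1 is the main retrograde motor of axons. Among its 5 genes, Dync1i1 was the single member to reach an unadjusted limma p under 0.05. By the exact permutation test of single genes, Dync1i1 and Kif28 were under that level, 2 of the 61 members. No share of all genes is given for this test, so that count has no background beside it. Dync1i1 encodes the neuronal intermediate chain, through which dynein binds dynactin. It lay between 11.09 and 11.89 in WT (median 11.60) and between 11.48 and 12.31 in KO (median 11.86). The ranges overlapped between 11.48 and 11.89, and the library labelled 433 was the highest KO array. The log2 fold change was 0.32 (SE 0.14, 95% confidence interval 0.02 to 0.62, exact permutation p = 0.043, two-sided), and the limma adjusted p over all probe sets was 1.00. It was 0.26 without the library labelled 433, 0.21 with the CA13-marked array of 433 in its place, 0.35 in the larger series and 0.23 in the smaller. The unadjusted p was not under 0.05 in any of these 4 fits. Leaving out KO 384, KO 391, KO MS15, WT 206, WT 41, WT 437 or WT 392 also took it past 0.05, with differences of 0.24 to 0.32.
Dync1h1, the motor-bearing heavy chain, lay between 10.87 and 12.44 in WT (median 11.15) and between 10.37 and 12.07 in KO (median 11.47). The KO arrays fell on both sides of the WT median, with a difference of 0.07 (SE 0.26), or -0.01 without the library labelled 433. Dync1li2, a light intermediate chain, lay between 9.96 and 10.71 in WT (median 10.55) and between 10.41 and 10.83 in KO (median 10.56), a difference of 0.19 (SE 0.13). The broadly expressed intermediate chain Dync1i2 differed by -0.05 (SE 0.12) and the light intermediate chain Dync1li1 by -0.18 (SE 0.26). The direction was thus mixed within the complex, with 3 genes above 0 and 2 below. The ciliary dynein genes Dync2h1, a heavy chain, and Dync2li1, a light intermediate chain, differed by 0.04 (SE 0.13) and -0.20 (SE 0.25). Without the library labelled 433, Dync2li1 differed by -0.07.

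The dynein light chains are small subunits that help assemble the motor and bind cargo adaptors. None of the 6 passed the test. Dynll1 had the smallest SE of the members, with WT arrays at 14.67 to 14.87 (median 14.84) and KO arrays at 14.72 to 14.85 (median 14.77). Its difference was -0.03 (SE 0.07, 95% confidence interval -0.18 to 0.12), which leaves out a change of 0.5 in either direction on the normalized scale. Before normalization its signals ran from 21053.2 (KO 391) to 38130.8 (WT 392), and WT 392 had the lowest normalized value. The small SE therefore holds for normalized values only. Dynlt1f, a Tctex-type light chain gene, differed by 0.32 (SE 0.22), lying between 6.49 and 7.91 in WT (median 7.53) and between 7.14 and 8.30 in KO (median 7.67). As for Kif22, its probe set is of a type whose probes can also match other transcripts. Dynlt3, another Tctex-type light chain, differed by 0.12 (SE 0.15), and by 0.04 without the library labelled 433.

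Dynactin links dynein to cargo and makes it processive. None of its 6 subunits passed the test, and their log2 fold changes ran from -0.15 to 0.07. Dctn1, whose product binds both dynein and microtubules, lay between 13.95 and 14.40 in WT (median 14.16) and between 14.02 and 14.32 in KO (median 14.22). The KO arrays lay inside the WT range, and the difference was 0.03 (SE 0.09, 95% confidence interval -0.17 to 0.23). Dctn3, Dctn4, Dctn5 and Dctn6, which belong to the shoulder and pointed end of the complex, differed by -0.05, 0.07, 0.03 and -0.01.
Mapk8ip1 (JIP1), a scaffold that links kinesin-1 to cargo and to JNK kinases, lay between 9.84 and 10.77 in WT (median 10.26) and between 9.85 and 10.53 in KO (median 10.13), a difference of -0.10 (SE 0.16). Mapk8ip3 (JIP3), which links kinesin-1 and dynein to endosomes and lysosomes, lay between 8.68 and 10.27 in WT (median 8.91) and between 8.76 and 10.18 in KO (median 9.16). Its difference was -0.01 (SE 0.26) on the probe set used, and -0.37 (SE 0.21) and -0.35 (SE 0.16) on the dimmer ones, the latter under an unadjusted p of 0.05. The dimmer Mapk8ip1 probe set likewise lay lower, at -0.49 (SE 0.24), without reaching that level.

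Beside the members, 51 genes that link motors to cargo or regulate them were read from a list of 57. None passed the test and none reached an unadjusted limma p under 0.05 in either direction, with 32 above 0, 19 below and a median of 0.04. The smallest p was that of Kifbp, a kinesin-binding protein needed for axon growth, with WT arrays at 13.34 to 13.61 (median 13.41) and KO arrays at 13.40 to 13.96 (median 13.58). The difference was 0.19 (SE 0.09, exact permutation p = 0.013, two-sided, unadjusted), and the other probe set gave -0.07. Kifap3, the subunit that completes the Kif3 motor, differed by 0.24 (SE 0.16) on the probe set used and -0.02 on the other. Plekhm2, an adaptor of kinesin-1 on lysosomes, differed by 0.34 (SE 0.21). Cask and Lin7a, parts of a scaffold for cargo of Kif17, differed by -0.28 (SE 0.16) and -0.22 (SE 0.12). Lin7a had an unadjusted exact permutation p of 0.048. Here too, no share of all genes is given for the permutation test.

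The 4 arrays of the marks 433 and 437 allow the members' levels in granule and CA material to be set side by side within a mark. In each pair the array with low granule markers was taken minus the one with high granule markers, by lists that hold no motor gene. For 437 this is the CA13-marked array minus the unmarked one, as labelled, while for 433 it is the unmarked array minus the CA13-marked one. Read by the labels alone, every sign of the 433 pair would turn. There is 1 array of each kind per mark, the 2 marks differ in genotype, and no test was made. In bulk samples such as these, fewer cells of a type and less RNA per cell cannot be told apart. The median difference was 0.11 in the 437 pair and 0.08 in the 433 pair (all genes 0.02 and 0.01), and 44 of 61 members had the same sign in both pairs (72.1%, all genes 64.0%). Differences over 1 in both pairs were seen for 1 member upward (Kif3b), beside 2.54% of all genes, and for 2 members downward (Kif26b and Klc3), beside 2.23%. The Gapdh 3′ to 5′ log2 ratio is a sign of RNA quality. It was 5.85 and 5.84 in the 437 pair and 5.92 and 5.53 in the 433 pair. Its part in the pair differences was not tested. Over the unmarked arrays the ratio was 5.11 to 6.23 in WT and 5.04 to 6.41 in KO. Every array thus had far more 3′ than 5′ Gapdh signal. How this bears on dim or disagreeing probe sets was not tested.

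**Figure D3:**
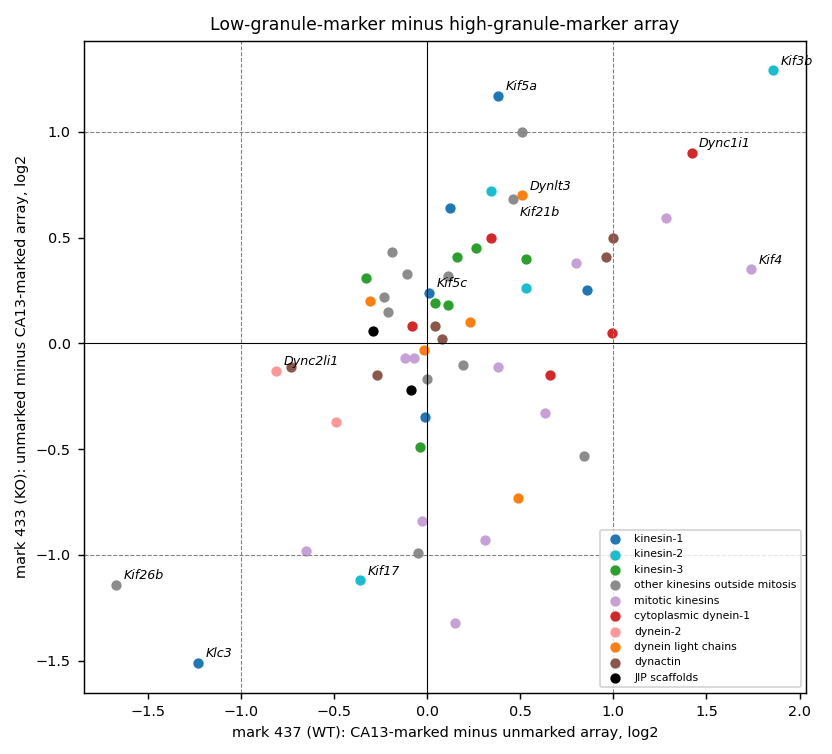
Difference of each of the 61 motor genes in the 437 pair (horizontal) and the 433 pair (vertical), as the array with low granule markers minus the one with high granule markers, on the log2 scale, coloured by role. Kif3b lies beyond 1 in both pairs at the upper right, and Kif26b and Klc3 lie beyond -1 at the lower left.

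Kif26b was lower where granule markers were low. It was at 8.27 on the CA13-marked array of 437 and 9.94 on its partner, and at 8.50 on the unmarked array of 433 and 9.65 on its partner. The differences were -1.67 and -1.14, and both low arrays lay under the other 15, which ran from 9.65 to 10.33. Without the library labelled 433, the SD of Kif26b within genotypes was 0.18. Klc3 differed by -1.23 and -1.51, but its signal is dim and its levels of 5.81 and 5.73 were within the range of the other 15 (5.61 to 7.24).

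Both arrays with low granule markers lay below the other 15 for 3 members, beside 5.25% of all genes. Kif26b was one of these. Kif17 was at 9.49 and 9.16 against 9.66 to 10.75 on the other arrays, with pair differences of -0.36 and -1.12. Dync2li1, the ciliary dynein light intermediate chain, was at 7.54 and 7.52 against 7.58 to 9.25, so that its distance from the nearest other array was small. The other probe sets of Kif17 differed by less, from -0.22 to 0.05 in the 437 pair and from -0.10 to -0.06 in the 433 pair.

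Both arrays lay above the other 15 for 4 members, beside 6.88% of all genes. Dync1i1 was at 12.50 on the CA13-marked array of 437 and 11.08 on its partner, and at 12.31 on the unmarked array of 433 and 11.41 on its partner. The differences were 1.42 and 0.90, and the other 15 arrays ran from 11.08 to 12.14. Dynlt3 was at 14.65 and 14.69 against 13.59 to 14.48, with differences of 0.51 and 0.70. Its 3 other probe sets were also higher in both pairs, by 0.40 to 0.71 and 0.43 to 0.65. Kif21b, a neuronal kinesin that restrains microtubule growth, was at 9.54 and 9.93 against 8.83 to 9.51, with differences of 0.46 and 0.68. Its other probe set had next to no signal. Kif4, a mitotic kinesin read at a mean signal of 113, was at 7.71 and 7.78 against 5.97 to 7.69.

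**Figure D4:**
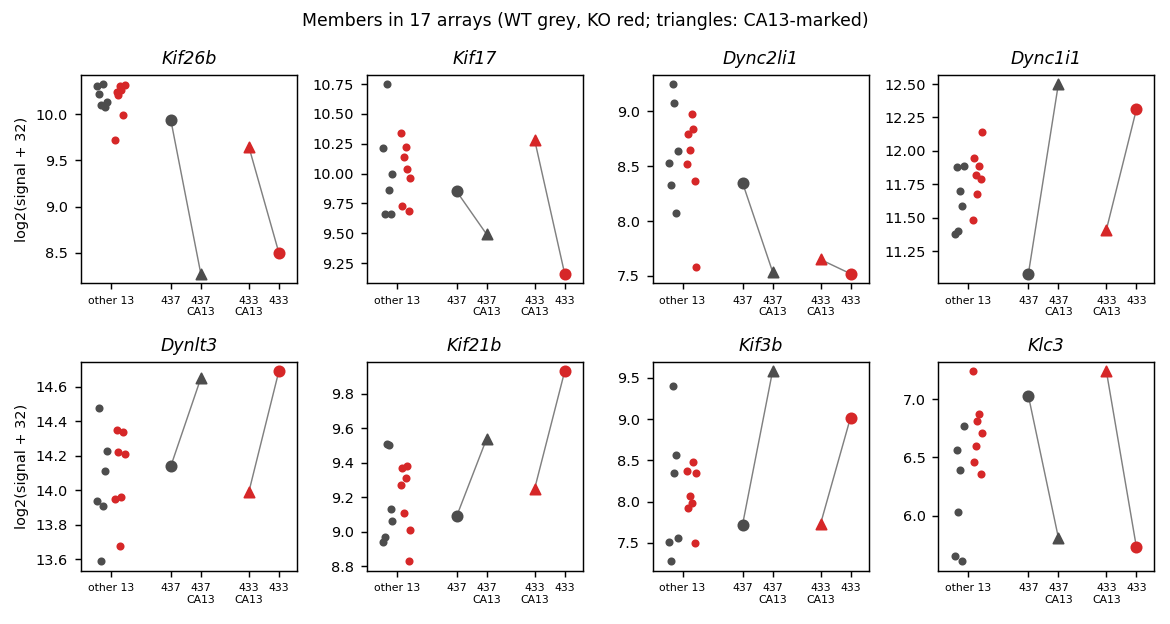
Log2(signal + 32) of 8 motor genes on all 17 arrays, with the other 13 unmarked arrays at the left of each panel (WT grey, KO red) and the 4 arrays of the marks 437 and 433 at the right, joined within a mark (triangles are CA13-marked). The 8 genes were picked by rules that place the CA13-marked array of 437 and the unmarked array of 433 on the same side of their partners. For Kif26b these arrays are at 8.27 and 8.50 against 9.65 to 10.33.

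Kif3b was higher by 1.86 and 1.29 on the probe set used, at 9.58 and 9.02, but the WT array 392 reached 9.40 without low granule markers. Its 3 other probe sets differed by -0.82 to 0.34 and by -0.86 to 0.08, so that the probe sets of Kif3b disagreed. Kif5a differed by 0.38 and 1.17, within an SD of 0.66 for the first pair and beyond it for the second. Kif5c differed by 0.01 and 0.24, Dctn1 by 0.08 and 0.02, and Dynll1 by -0.02 and -0.03. All 6 dynactin genes had the same sign in both pairs, with 4 above 0 and 2 below. The same held for every gene of kinesin-1 (6), kinesin-2 (4) and dynein-2 (2), beside 64.0% of all genes. It held for 6 of the 7 kinesin-3 genes, 3 of the 5 dynein-1 genes and 3 of the 6 dynein light chains. Among the rest were 1 of the 2 JIP scaffolds, 7 of the 11 mitotic kinesins and 6 of the 12 other kinesins. Some agreeing signs rest on small differences, such as 0.01 for Kif5c in the 437 pair and 0.02 for Dctn1 in the 433 pair. These groups are small, and their sign agreement was not tested. Of the dynactin genes, Dctn5 (1.00 and 0.50) and Dctn6 (0.96 and 0.41) differed most. The other probe set of Dctn6 went the opposite way (-0.73 and -1.07). Among the 51 adaptors, 0 were higher by over 1 in both pairs, beside 2.54% of all genes. Cask (-1.07 and -1.05) and Lin7c (-1.46 and -1.22) were lower by over 1 in both, beside 2.23% of all genes. Their other probe sets ran from -0.15 to 0.31 and from -0.36 to -0.04 for Cask, and from -0.93 to 0.95 and from -1.16 to 0.08 for Lin7c.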

How the data were processed

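Laser-captured dentate gyrus RNA was measured on an Affymetrix mouse array. The authors deposited linear signal intensities, scaled so that every array had a trimmed mean of 499.8, and the array medians were 88.1 to 123.0. MAS5 is named in the submitters' processing notes, RMA and SAM in the study's methods. SAM was not run. No 2 arrays were copies (highest Pearson r 0.9911).

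Control probe sets (64) were dropped, 32 was added before log2, and the 15 unmarked arrays were quantile normalized (all 17 together for the pairs of 433 and 437). limma 3.58.1 in R 4.3.3 was fitted over 45037 probe sets with genotype as the only term and an intensity trend, with Benjamini-Hochberg adjustment and calls at an adjusted p under 0.05. Exact permutation tests of single probe sets were two-sided over 6435 splits. The number of arrays limits the precision. The limma fit was tested on simulated log2 values, which did not pass through the normalization.

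Gene names came from the platform annotation (34945 probe sets with 1 symbol, 932 with several, 9160 with none), and all 61 member symbols matched RefSeq genes of GRCm38.p6 by Entrez ID. Promoters are RefSeq's, of the same build, and the probe sets' own build is not given. Of the members, 38 had over 1 probe set, and in 24 of these the sign differed between them.

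Members, marker lists and adaptors were chosen with earlier results of these data known. Values are given for members with the 6 smallest p, those differing by over 1 in both pairs, fixed subunits of kinesin-1 to kinesin-3, dynein, dynactin and the JIP scaffolds, the 3 brightest mitotic kinesins, and adaptors by the same kind of rule. Dctn2, Kif15, Kif16b, Kif2a, Kif4, Kif17 in the pairs, Kif21b, Dynlt3, Dync2li1 and other members named beside them were chosen after their values were seen. Alternatives covered the pseudocount (1 and 128), scaling, a signal filter of 100, array series, RNA quality, the CA13-marked array of 433, the variance trend, the mean over probe sets and leaving out each array in turn.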

Additional observations from a re-analysis of the deposited data

Results flagged for a closer look

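Of 50 groups of WT or KO values examined for named members, 5 held an array whose gap to the nearest of the others was a large part of the group's range, and chance marks about 1 in 20 groups. In WT, the array 392 was high for Dync1h1 (12.44, nearest 11.38) and low for Kif5c (13.84, nearest 14.39). In KO, the array 390 was high for Kif18b (8.0, nearest 7.57) and MS15 was low for Kif1b (12.93, nearest 13.46). The KO library labelled 433 was low for Kif26b (8.50, nearest 9.73), and its granule and CA markers also stood apart.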

How the results depend on the processing

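The count of members called between KO and WT was 0 under all 26 alternatives, and no scaling or pseudocount put the median of all genes above 0.012. At an unadjusted limma p under 0.05, 2 members were higher with a pseudocount of 1 and 2 with the CA13-marked array of 433 in place of its unmarked one, where they were Dynlt1f and Klc3 and no longer Dync1i1. The count was 0 within the smaller array series, and 0 to 2 when 1 array was left out, while the count of lower members was then 0 to 1. Shares of all genes at this level are given only for the main fit. Without 433 the single member was Kif11, and within the larger array series it was Kif22. The members' median was 0.08 within the larger array series and 0.01 to 0.06 when 1 array was left out. Dync1i1 stayed above 0 throughout (0.21 to 0.38) and under the unadjusted level in 15 of 26 alternatives. Over the 25 named members, 49 of 647 alternative differences changed sign, none of them at an unadjusted p under 0.05.

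For the pairs, the members higher by over 1 in both were 2 with a pseudocount of 1, 0 with the largest one tried, 2 with median scaling, 5 in the 437 pair alone, and 0 on the mean over a gene's probe sets. They were 3 at a 1.5-fold difference and 4 when both arrays had to lie above the other 15, the latter chosen after seeing the data. Shares of all genes are given only for the main rule and for the rule on the other 15. The remaining counts therefore have no background beside them. The lower members were 0 with the largest pseudocount and 1 without dim probe sets. None of 72 alternatives for single members changed sign. These members were picked because they differed by over 1 in both pairs or lay outside the other 15. Both rules require the same direction in both pairs, so the stable signs are no separate support. No paired analysis was possible because the labels give the KO and WT arrays no shared replicate numbers. Dim probe sets limit what Kif1a, Klc3 and most mitotic kinesins can show.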
